A study of Mus musculus with 22 samples.

Results

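The comparison described here set the cortex of N40K mice against that of wild-type (WT) mice at 6 months of age, with 3 libraries in each group and all 15705 genes of the 6-month score table. N40K mice carry a transgene (N40K-Tg, heterozygous in the cross) that encodes a fragment from the N-terminal end of U1-70K, and the WT mice are littermates that carry neither transgene of the cross. Both groups come from matings of N40K-Tg +/- with FAD +/- animals. The same litters gave dTg mice, which carry N40K together with the 5xFAD transgenes (human amyloid precursor protein and presenilin 1 with familial Alzheimer disease mutations), and 5xFAD mice, which carry the 5xFAD transgenes alone, again with 3 libraries each. These 6 libraries were used to look at the N40K effect a second time, in animals that share no library with N40K or WT. They also entered the comparison of N40K with WT. The spread behind the gene tests, the filter on mean score and the reference mean for intron length came from all 12 libraries. The whole series holds 22 libraries. Its title places the model in the study of U1 snRNP splicing dysfunction in Alzheimer disease. The promoter of the N40K transgene, the sex of the mice and whether a library came from 1 animal are not stated in the labels. P-values therefore measure the spread between these libraries.

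The value analysed was the Sd score, a linear ratio per gene and library deposited by the authors with 3 decimals and read here, from its name and the series title, as a measure of deficient splicing that grows with the unspliced share of a gene's signal. A score is not a level of transcript, so neither the transgene nor the cortical cell types could be checked against expression. Of the 15705 genes, 9640 (61.4%) had a mean score of 0.02 or more over the 12 libraries of 6 months, and the counts, the general shift and the list medians are given for these genes as well, because 1 step of the last decimal (0.001) is a large part of a lower score. Changes are differences of log2(score + 0.002), N40K minus WT, which draws the changes of low scores towards 0. Centring, where used, subtracts each library's own median over genes.

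The U1 small nuclear ribonucleoprotein (snRNP) holds the U1 small nuclear RNA (snRNA), a ring of Sm proteins and the specific proteins U1-70K, U1-A and U1-C. The 5′ end of the U1 snRNA pairs with the 5′ splice site of an intron, the opening step of spliceosome assembly. U1 is also known to keep nascent transcripts from being cleaved and polyadenylated early within introns. U1-70K itself binds a stem-loop of the U1 snRNA and contacts splicing factors through its C-terminal part, and in Alzheimer disease it is known to collect in insoluble aggregates.

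The mouse U1 snRNA gene Rnu1a1 is shown because its 5′ end is the part that reads splice sites. It lies on the plus strand at chr11:87422867-87423030 in GRCm38 and has 164 bases in the GENCODE M21 transcripts. The capitals mark bases 3 to 11, written as DNA, which pair with the splice-site sequence CAGGTAAGT.
Rnu1a1: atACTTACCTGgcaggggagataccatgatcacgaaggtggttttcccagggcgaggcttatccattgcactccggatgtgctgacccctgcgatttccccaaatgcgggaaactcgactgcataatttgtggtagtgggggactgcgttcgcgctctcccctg

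The scores of most genes were slightly higher in N40K than in WT cortex, and the size of this difference was set largely by 1 of the 3 N40K libraries. The median score over all genes was 0.036, 0.031 and 0.032 in N40K replicates 1, 2 and 3, against 0.029, 0.029 and 0.030 in the WT libraries. The groups did not overlap, but N40K replicate 2 lay only 1 step of the last decimal above WT replicate 3. N40K replicate 1 was the highest of its group in 56.6% of all genes, replicate 2 in 13.7% and replicate 3 in 14.7%. Measured gene by gene against the WT mean, the median deviation was 0.20 in N40K replicate 1, 0.03 in replicate 2 and 0.06 in replicate 3, against 0.00, −0.02 and 0.03 in the WT libraries. WT replicate 3 thus deviated as much as N40K replicate 2.

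Over all genes the median change was 0.10 (1.07-fold), with 70.9% of genes above 0, and it was 0.08 at a mean score of 0.02 or more, with 67.2% above 0. The spread between genes was wide: the 10th and 90th percentiles of the change lay at −0.16 and 0.44 at a mean score of 0.02 or more. In that range 99 genes were more than 2-fold higher and 26 more than 2-fold lower, a count of sizes and not of tests. The median of the library scores differed by 0.16 between the groups (exact permutation p = 0.1, two-sided, the smallest that 3 against 3 libraries allow) and the 75th percentile by 0.11 (exact permutation p = 0.1). The 25th percentile differed by 0.15 (exact p = 0.3), the 90th by 0.07 (exact p = 0.2) and the 10th by 0.07 (exact p = 1), and after adjustment over these 5 values the smallest p was 0.25. At a mean score of 0.02 or more the differences at the 10th, 25th, 50th, 75th and 90th percentiles were 0.12, 0.12, 0.12, 0.09 and 0.07. Without N40K replicate 1 the median change over all genes was 0.05.

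**Figure D1:**
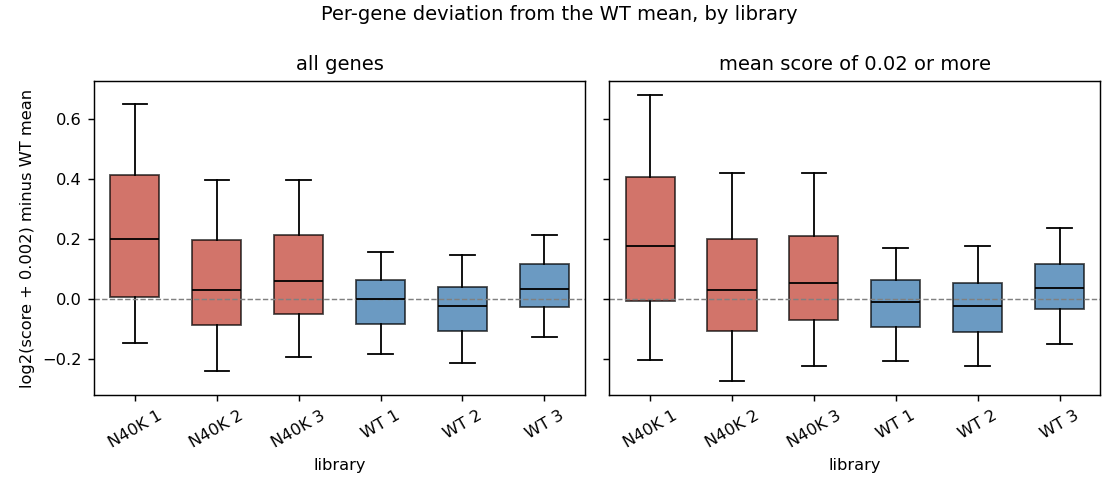
Each box gives the middle 50% of genes, its line the median and its whiskers the 10th and 90th percentiles of log2(score + 0.002) minus the WT mean in 1 library (N40K red, WT blue), for all genes on the left and for genes with a mean score of 0.02 or more on the right. The median of N40K replicate 1 stands at 0.20 over all genes, while those of N40K replicates 2 and 3 (0.03 and 0.06) are close to that of WT replicate 3 (0.03).

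All 3 N40K libraries lay above all 3 WT libraries in 2637 genes (16.8%) and below them in 415 (2.64%). At a mean score of 0.02 or more the counts were 1690 above (17.5%) and 345 below (3.58%). Centring turned this balance round. After centring, the N40K libraries lay above in 1472 genes (9.37%) and below in 3267 (20.8%), and at a mean score of 0.02 or more above in 835 (8.66%) and below in 2033 (21.1%). Centring removed more than the typical gene had gained: the library medians differed by 0.16, the median gene by 0.10, so the median centred change was −0.06. The direction of a small change therefore depends on the scale.

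The higher scores were not spread evenly over genes and followed intron length. Total intron length, the bases of a gene's span outside all its annotated exons, came from GENCODE M21 by gene identifier for 94.4% of genes. Quintile limits were set over all genes with introns. At a mean score of 0.02 or more the quintiles therefore held 2620, 2420, 1954, 1340 and 543 genes, from shortest to longest. Among these genes the median change was 0.02 in the quintile with the shortest introns (up to 5704 bases in all), then 0.07, 0.13 and 0.14. It was 0.16 in the quintile with the longest (over 71567 bases). Over all genes the same quintiles gave 0.02, 0.08, 0.12, 0.14 and 0.14. The N40K libraries lay above the WT libraries in 9.12% of the short-intron genes and in 23.8% of the long-intron genes at a mean score of 0.02 or more.

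The gradient was present in each N40K library, including those whose overall shift was small. In the longest quintile at a mean score of 0.02 or more, the median deviation from the WT mean was 0.24, 0.13 and 0.13 in N40K replicates 1, 2 and 3, against −0.03, −0.02 and 0.04 in the WT libraries. In the shortest quintile it was 0.09, −0.02 and 0.01 in N40K, against −0.01, −0.02 and 0.03 in WT. Replicates 2 and 3 were thus inside or next to the WT range for short-intron genes and outside it for long-intron genes.

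To put this as 1 value per library that no centring can alter, the median deviation from the mean of the 12 libraries was taken in the longest quintile minus that in the shortest. This difference was 0.07, 0.07 and 0.04 in the N40K libraries, against −0.08, −0.08 and −0.07 in the WT libraries. The means were 0.06 ± 0.02 in N40K and −0.08 ± 0.01 in WT (SD, n = 3 each), 0.14 apart, with every N40K library above every WT library (exact permutation p = 0.1, the smallest possible). The libraries of the second pair, which entered the values above only through that mean and the filter on mean score, were separated in the same way: 0.04, 0.18 and −0.0036 in dTg, against −0.07, −0.08 and −0.07 in 5xFAD (exact permutation p = 0.1). Adjusted over the 4 such comparisons made, both p-values were 0.2. The dTg values overlapped neither 5xFAD nor WT, but they were more spread than those of N40K (SD 0.09 against 0.02). Their mean of 0.07 leaned on dTg replicate 2.

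Scores and intron length are themselves linked, since genes with long introns had low scores. Along the score the median change was 0.11 under 0.005, 0.12 from 0.005 to 0.02, 0.11 from 0.02 to 0.05, 0.08 from 0.05 to 0.1, 0.06 from 0.1 to 0.3, 0.03 from 0.3 to 1 and −0.01 in the 412 genes with a mean score over 1. Low-score genes (0.02 to 0.05) minus high-score genes (0.3 to 1) gave 0.10, −0.02 and −0.0040 in N40K libraries and −0.04, −0.09 and −0.02 in WT libraries, and the groups overlapped (exact permutation p = 0.2). Within a narrower range of scores, 0.02 to 0.1, the intron-length difference between N40K and WT libraries was 0.13, from 428 long-intron and 1021 short-intron genes, and again every N40K library was above every WT library. Library depth and RNA quality are not given in the sources used here, and their part in this gradient was not tested.

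**Figure D2:**
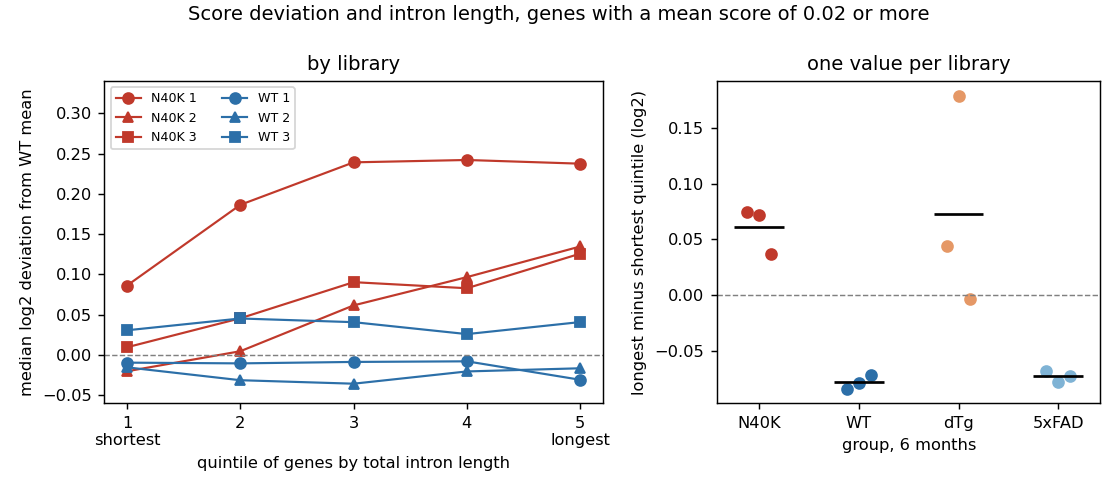
The left panel plots the median log2 deviation from the WT mean by quintile of total intron length (1 shortest, 5 longest) for each N40K (red) and WT (blue) library. Genes shown have a mean score of 0.02 or more, with quintile limits set over all genes with introns. The right panel plots the longest minus the shortest quintile, relative to the mean of the 12 libraries, with 1 point per library and a bar for the group mean: the N40K and dTg libraries lie at or above −0.0036 and the WT and 5xFAD libraries at or below −0.07.

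Tested gene by gene, 24 genes rose in N40K cortex (0.153% of 15705) and 4 fell (0.0255%), 28 in all (0.178%), by limma with a Benjamini-Hochberg adjusted p under 0.05. At an unadjusted p under 0.05, 2630 genes were higher (16.7%) and 337 lower (2.15%). Of the 28 genes, 13 had a mean score of 0.02 or more (9 rose, 4 fell). Another 13, all of them rises under 0.02, moved by exactly 1 step of the last decimal with no spread within any of the 4 groups, and are described apart.

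The 9 rises at a mean score of 0.02 or more are taken in turn. Slc38a9, a lysosomal transporter that senses arginine for mTORC1, had scores of 0.038, 0.036 and 0.035 in N40K, against 0.018, 0.024 and 0.021 in WT, a rise of 0.74 ± 0.10 (log2, standard error) with a limma adjusted p of 0.0225. Atg4c, a protease that processes ATG8 proteins in autophagy, had 0.027, 0.024 and 0.023 in N40K, against 0.015, 0.016 and 0.016 in WT, a rise of 0.59 (limma adjusted p = 0.0463). Both genes were separated between the groups by more than the range of either. Ogg1, the glycosylase that removes 8-oxoguanine from DNA, stood at 0.062, 0.061 and 0.063 in N40K, against 0.039, 0.045 and 0.042 in WT (0.54, limma adjusted p = 0.0276).

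Evc, a ciliary protein of Hedgehog signalling, stood at 0.136, 0.113 and 0.105 in N40K, against 0.073, 0.071 and 0.075 in WT, a rise of 0.67 (limma adjusted p = 0.0187). Fam196a, a protein of inhibitory synapses, had 0.060, 0.046 and 0.056 in N40K, against 0.030, 0.023 and 0.030 in WT, the largest rise among the 13 genes at 0.92 (limma adjusted p = 0.0397). Hnrnpu (ENSMUSG00000039630), a nuclear-matrix hnRNP that acts in splicing, stood at 0.145, 0.141 and 0.137 in N40K and 0.108, 0.110 and 0.114 in WT, a rise of 0.34 with a standard error of 0.04 (limma adjusted p = 0.0177). Its change after centring was 0.19, in the same direction.

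Clcn2, a chloride channel, had 0.080, 0.076 and 0.081 in N40K, against 0.064, 0.062 and 0.062 in WT (0.32, limma adjusted p = 0.045), and Abhd14b, of the alpha/beta hydrolase family, 0.294, 0.294 and 0.309 in N40K, against 0.219, 0.227 and 0.243 in WT (0.38, limma adjusted p = 0.0222). RP23-393F23.8, a locus with no further annotation in the reference, had 0.175, 0.155 and 0.160 in N40K, against 0.096, 0.089 and 0.090 in WT, and rose by 0.82 (limma adjusted p = 0.00704). It was 1 of 2 genes with spread that passed whichever of the 6 libraries was left out, at an adjusted p of at most 0.0411.

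Among lower scores, Slit3, a secreted axon-guidance ligand of Robo receptors, stood at 0.007, 0.005 and 0.005 in N40K and at 0.002 in all WT libraries, a rise of 0.93 (limma adjusted p = 0.0336). Pcdh10, a protocadherin of neuronal contacts, stood at 0.020, 0.019 and 0.016 in N40K, against 0.011, 0.012 and 0.011 in WT (0.60, limma adjusted p = 0.0196). For Slit3 the separation was 3 steps of the last decimal, for Pcdh10 it was 4.

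The 4 genes that fell did so against the general trend, and their falls were larger after centring. Peg3 (ENSMUSG00000002265), an imprinted zinc-finger gene expressed from the paternal allele, had 0.061, 0.073 and 0.069 in N40K, against 0.123, 0.133 and 0.142 in WT, a change of −0.95 ± 0.13 (log2, standard error; limma adjusted p = 0.0227), or −1.11 after centring. Nudt16, a nucleotide hydrolase that can remove the cap of small nucleolar RNAs, stood at 0.132, 0.129 and 0.152 in N40K, against 0.254, 0.230 and 0.212 in WT (−0.74, limma adjusted p = 0.0277). In neither gene did an N40K library come within the WT range.

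Fnbp4 (ENSMUSG00000008200), a formin-binding protein with WW domains, had 0.021, 0.023 and 0.023 in N40K, against 0.035, 0.033 and 0.033 in WT (−0.55, limma adjusted p = 0.00271), and it passed without each of the 6 libraries in turn (adjusted p up to 0.0213). Praf2, a membrane protein of the endoplasmic reticulum and vesicles, stood at 0.025, 0.023 and 0.026 in N40K, against 0.033, 0.037 and 0.035 in WT (−0.47, limma adjusted p = 0.0381). The other 13 genes with spread missed the threshold without at least 1 library, at limma adjusted p values of up to 0.178 (Atg4c). Most of them passed in few of the 6 fits that left out 1 library. Evc passed in 4, Hnrnpu in 3, and Nudt16 and Pcdh10 in 2. Peg3, Slc38a9, Fam196a, Ogg1 and Abhd14b passed in 1, and Atg4c, Praf2, Slit3 and Clcn2 in 0. Whether reads of overlapping genes on the other strand were kept apart is not stated, so a score may include signal of such a partner.

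**Figure D3:**
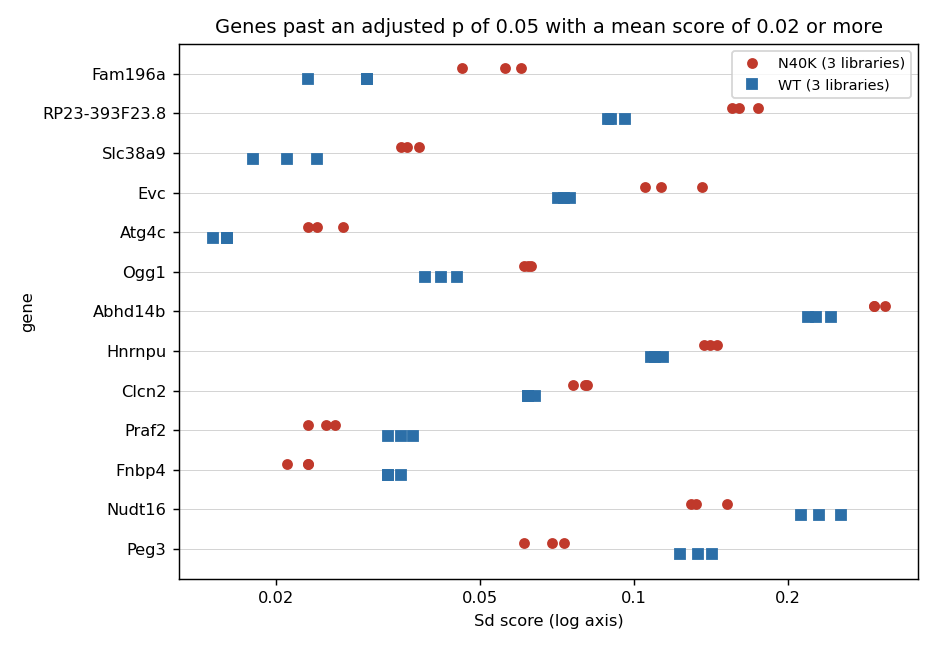
Sd scores on a log axis for the 13 genes with a mean score of 0.02 or more and a limma adjusted p under 0.05, each gene with its 3 N40K libraries (red circles) above its 3 WT libraries (blue squares). In all 13 genes the groups do not overlap, with Fam196a showing the largest rise (0.92) and Peg3 the largest fall (−0.95).

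The remaining 13 rises were a rounding step each: Atrnl1 stood at 0.001 in all N40K and at 0.000 in all WT libraries, and Atp2b2, Kcnab1, Rims2 and Atp9a stood at 0.002 in all N40K and at 0.001 in all WT libraries. Over all genes, the group means of 4690 differed by at most 1 step, and 511 had no spread within N40K or WT. The 13 called genes had no spread in any of the 4 groups, from which the test takes its spread. Elavl2 had the same N40K and WT scores as Atp2b2 but varied in dTg, and it did not pass (limma adjusted p = 0.0724). As background, Atp2b2 is a plasma-membrane calcium pump, Kcnab1 a subunit of voltage-gated potassium channels and Rims2 a scaffold of the presynaptic active zone. The others were Slc4a10, a bicarbonate transporter, Magi2, a synaptic scaffold, and Pak3, Thrb, Nr3c2, Cadm1, Samd12 and Ddx6. The median total intron length of the called genes with a mean score under 0.02 was 301598 bases, against 20963 bases over all genes with introns and 8761 bases for the called genes at 0.02 or more. With genes of at most 1 step left out of the adjustment, 10 genes passed.

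No gene passed over all genes after centring (0 of 15705 by limma; 1137 higher and 1882 lower at an unadjusted p under 0.05), although 12 genes shared the smallest adjusted p of 0.0507. Refitted alone, the 9640 genes with a mean score of 0.02 or more gave 2 calls without centring (0.0207%) and 31 with it (0.322%; 25 higher, 6 lower), of which 9 were among the 28. No more than 1 gene passed in any such centred refit that left out 1 of the 6 libraries, so the following genes rest on the full set. They were chosen after their values were seen. Faah, the enzyme that degrades anandamide, had 0.147, 0.108 and 0.121 in N40K, against 0.063, 0.060 and 0.063 in WT. Camk2n2, an inhibitor of CaMKII, had 0.261, 0.214 and 0.199 in N40K, against 0.117, 0.129 and 0.125 in WT. Gnaz, a G-protein alpha subunit of the Gi family, had 0.097, 0.059 and 0.065 in N40K, against 0.036, 0.033 and 0.037 in WT. In all 3 genes N40K replicate 1 was the highest library, and the other N40K libraries stood clear of the WT range as well. Further genes of the 31 were Bbs2 (ciliary trafficking), Mtpap and Rars2 (mitochondrial RNA processing and arginine tRNA charging), Sec24b (a COPII coat protein) and Lmf1 (lipase maturation), with Zglp1 and Zfp930 among the 6 that were lower.

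The largest changes that held both ways were described without a call. These are genes with a mean score of 0.02 or more whose groups were separated before and after centring and whose centred unadjusted p was under 0.01: 284 were higher and 206 lower, and 127 of the 490 are predicted genes, not named. Ccdc24, a coiled-coil protein, had the largest centred difference among the named genes that were higher, at 0.135, 0.089 and 0.120 in N40K, against 0.045, 0.022 and 0.024 in WT (1.90, and 1.74 centred). Kcnk3, the background potassium channel TASK-1, stood at 0.102, 0.053 and 0.058 in N40K, against 0.021, 0.020 and 0.021 in WT (1.63, 1.47 centred). Nmnat1, which makes NAD in the nucleus, stood at 0.038, 0.026 and 0.025 in N40K, against 0.010, 0.009 and 0.006 in WT (1.61, 1.46 centred). For Kcnk3 the WT libraries lay within 0.001 of each other, and the N40K libraries were more spread.

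Fam53b (1.57), Entpd6 (1.57, a nucleotide-hydrolysing enzyme), Zfp114 (1.48), Angptl2 (1.29, a secreted angiopoietin-like protein), Agphd1 (1.27) and Alpk2 (1.18) were also among the 12 highest. Oc90, a protein of the inner ear's otoconia, and Ccdc63 had wide N40K ranges, as in the scores of 0.158, 0.052 and 0.227 for Oc90 in N40K, against 0.048, 0.028 and 0.026 in WT. None of the 12 passed over all genes (limma adjusted p from 0.0556 for Ccdc24 to 0.125 for Alpk2).

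The 2 largest differences among the 12 lowest genes came with wide scatter in WT. Acnat2, an acyl-CoA amino acid acyltransferase, stood at 0.016, 0.070 and 0.092 in N40K, against 0.450, 0.125 and 0.623 in WT, and Adam5, of the ADAM metalloprotease family, at 0.052, 0.085 and 0.077 in N40K, against 0.214, 0.720 and 0.214 in WT. The group of Fbxo15, Arhgap40, Rdh16, Pspn, Nsl1, Fblim1, Pdia2 and Gtse1 ranged from −0.87 (Gtse1) to −1.30 (Fbxo15), and Zfp930 stood at −0.93 with 0.042, 0.049 and 0.047 in N40K, against 0.113, 0.066 and 0.096 in WT. Peg3 was the only one of the 12 with an adjusted p under 0.05.

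The N40K effect in mice with the 5xFAD transgenes comes from other libraries, and the genes chosen from N40K and WT can be read there. The background of such a reading is high: of all genes with a change above 0, 80.5% had the same sign in dTg minus 5xFAD and 18.9% were separated in the same direction, and of those below 0 the shares were 51.6% and 6.45%. Over all genes the dTg libraries lay above the 5xFAD libraries in 2256 (14.4%) and below in 371 (2.36%). Of the 24 rises, 22 had the same sign and 21 were separated, and of the 4 falls all had the same sign and 3 were separated. The 13 genes that moved by 1 step had no spread in any of the 4 groups, and the test takes its spread from all of them. The exceptions among the rises were Atp2b2 and Kcnab1, at 0.002 in every dTg and 5xFAD library, and Ogg1, at 0.050, 0.058 and 0.058 in dTg and 0.048, 0.054 and 0.053 in 5xFAD.

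Of the 284 described genes higher in N40K, 276 had the same sign (97.2%) and 213 were separated (75%), with a median change of 0.70 in N40K minus WT and 0.52 in dTg minus 5xFAD. Of the 206 lower genes, 160 had the same sign (77.7%) and 58 were separated (28.2%), with medians of −0.30 and −0.13. The fit that picked these genes took its spread, and the filter its mean, from all 12 libraries, so a small spread in dTg and 5xFAD was part of the choice. Chosen on the 6 N40K and WT libraries alone, by separation before and after centring and a mean of 0.02 or more over the 6, 832 genes were higher and 345 lower. Of these, 96.2% and 75.9% had the same sign and 51.9% and 22.0% were separated in the same direction in dTg minus 5xFAD. This choice was made after the other values were seen. Peg3 had 0.082, 0.059 and 0.083 in dTg, against 0.135, 0.130 and 0.125 in 5xFAD, Ccdc24 0.065, 0.121 and 0.085 in dTg, against 0.028, 0.023 and 0.029 in 5xFAD, and Kcnk3 0.047, 0.097 and 0.045 in dTg, against 0.024, 0.022 and 0.022 in 5xFAD. In Ccdc24 and Kcnk3 dTg replicate 2 was the highest library of its group, and in Peg3 it was the lowest. The other dTg libraries lay outside the 5xFAD range of these genes as well. Of the genes named as highest or lowest, 4 did not keep their direction in dTg minus 5xFAD: Ccdc63 (−0.07), Acnat2 (0.89), Gtse1 (0.19) and Nsl1 (0.06). By the interaction term, 3 genes differed between the backgrounds (limma adjusted p under 0.05), all by 1 rounding step.

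**Figure D4:**
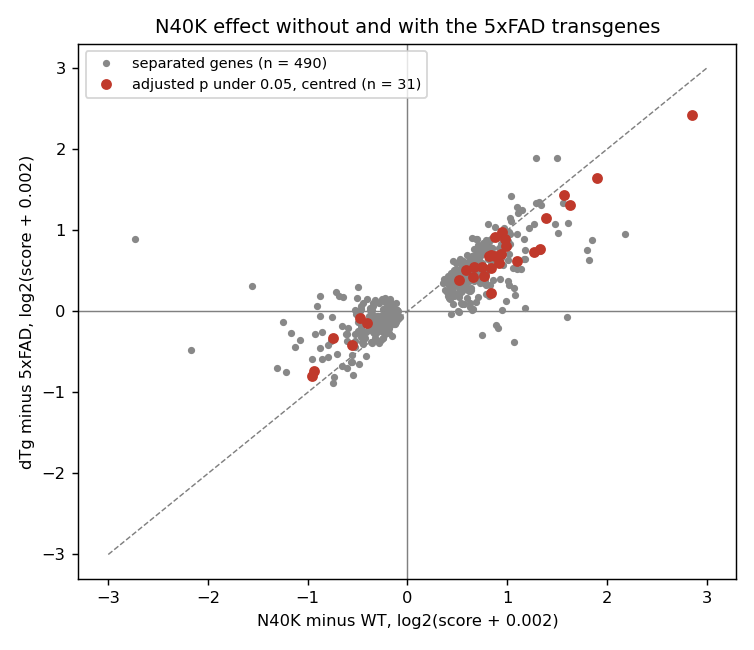
Change in log2(score + 0.002) in N40K minus WT (horizontal) and in dTg minus 5xFAD (vertical) for the 490 separated genes (grey) and the 31 genes that passed in the centred fit at a mean score of 0.02 or more (red), with the line of equality dashed. The 490 genes were chosen on their N40K and WT scores, with spread and mean taken over all 12 libraries; 276 of the 284 on the right lie above 0 on the vertical axis and 160 of the 206 on the left lie below it.

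Genes of the U1 snRNP and its partners were then read by role. Snrnp70, which encodes mouse U1-70K, had 0.042, 0.041 and 0.040 in N40K, against 0.044, 0.046 and 0.045 in WT, a change of −0.13 that did not pass (limma adjusted p = 0.214). Snrpa (U1-A) stood at 0.013, 0.009 and 0.008 in N40K and 0.009 in all WT libraries, and Snrpc (U1-C) at 0.042, 0.027 and 0.028 in N40K, against 0.033, 0.022 and 0.035 in WT (limma adjusted p = 0.791 and 0.837). The genes of the U1-specific proteins therefore gave no call. Snrnp70 was lower in every N40K library than in every WT library, before and after centring (−0.29 centred). The transgene encodes a U1-70K fragment, and whether its reads enter the Snrnp70 score was not tested. The scores of Snrpa and Snrpc overlapped between the groups.

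The LUC7-like proteins, which associate with U1 and affect the choice of 5′ splice sites, were separated in part. Luc7l2 had 0.068, 0.070 and 0.060 in N40K, against 0.043, 0.043 and 0.056 in WT (0.47, limma adjusted p = 0.0898), and Luc7l3 had 0.008, 0.007 and 0.008 in N40K, against 0.005, 0.005 and 0.006 in WT (0.40, limma adjusted p = 0.0755). Luc7l overlapped, at 0.012, 0.011 and 0.010 in N40K, against 0.010, 0.009 and 0.010 in WT. Prpf39, a U1 auxiliary protein, had 0.054, 0.049 and 0.046 in N40K, against 0.039, 0.040 and 0.045 in WT (0.25, limma adjusted p = 0.149). Of the 15 genes listed for U1, none rose and 1 fell, Fnbp4, which was put on the list with its result known. The list's median change was 0.10, against 0.10 over all genes, and for its 10 genes with a mean score of 0.02 or more it was 0.02, against 0.08 over all such genes.

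The other spliceosome lists gave no call, with median changes of 0.07 for 19 Sm and SMN genes, 0.06 for 17 genes of U2 and branch-site recognition, 0.07 for 27 tri-snRNP and catalytic factors and 0.13 for 8 genes of the minor spliceosome. With the filter at 0.02 these were 0.07 (11 genes), 0.06 (11), 0.08 (15) and 0.22 (4). In the minor spliceosome, which removes U12-type introns, Snrnp48 and Snrnp35 lay on opposite sides. Snrnp48 had 0.113, 0.112 and 0.116 in N40K, against 0.142, 0.144 and 0.153 in WT (−0.36, limma adjusted p = 0.0587), and Snrnp35 had 0.044, 0.039 and 0.041 in N40K, against 0.032, 0.027 and 0.036 in WT (0.37, limma adjusted p = 0.11). Of the SF3b complex, which binds the branch site, Sf3b3 stood at 0.010 in all N40K libraries, against 0.012, 0.014 and 0.012 in WT (−0.29, limma adjusted p = 0.0745). None of these 3 passed.

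Among 20 SR proteins and 9 SR protein kinases none passed, with medians of 0.08 and 0.07, and among 23 hnRNP genes Hnrnpu alone rose and none fell (median 0.07). Among genes with a mean score of 0.02 or more these medians were 0.06 for 18 SR proteins, 0.14 for 6 kinases and 0.08 for 12 hnRNP genes. Srpk1, a kinase that phosphorylates SR proteins, had 0.048, 0.040 and 0.039 in N40K, against 0.032, 0.033 and 0.033 in WT (0.35, limma adjusted p = 0.105). No gene passed among 25 neuronal splicing regulators, 22 cleavage and polyadenylation factors, 38 genes of RNA decay and export, 19 of transcription elongation and 13 RNA-binding proteins of motor neuron disease, with medians of 0.09, 0.03, 0.04, 0.08 and 0.13 in that order. With the same filter they were 0.03, 0.03, 0.04, 0.08 and −0.01, so the median of the motor neuron disease list, the highest of these 5 over all scores, turned its sign with the filter on 8 genes.

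Among the lists of ion channels and synapses, the potassium channels had the highest median. Of 49 potassium channel genes, which set the resting potential and end the action potential, 1 rose (Kcnab1, by 1 rounding step) and none fell. Over all genes 0.153% rose and 0.0255% fell. A change above 0 was seen in 42 of the 49, against 70.9% of all genes. The list's median was 0.19, against 0.10 over all genes. At a mean score of 0.02 or more their median was 0.23, against 0.08, and after centring it was 0.04 over the 49. The list's median deviation from the WT mean was 0.36, 0.05 and 0.12 in N40K replicates 1, 2 and 3. Kcnk10, another background potassium channel, had 0.015, 0.015 and 0.011 in N40K, against 0.008, 0.008 and 0.009 in WT (0.59, limma adjusted p = 0.0807). The share of these genes with N40K above WT in all libraries, 8 of 49, was close to the 16.8% of all genes.

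The 36 sodium and calcium channel genes had a median of 0.11 with no call, and the 43 axon-guidance and adhesion genes one of 0.14 with Slit3 and Pcdh10 as the rises. Synaptic vesicle genes had a median of 0.09 over 36, with Rims2 as the rise; Snap25, a SNARE of transmitter release, stood at 0.005, 0.004 and 0.004 in N40K and at 0.003 in all WT libraries (0.34, limma adjusted p = 0.0778). Glutamatergic genes had a median of 0.11 over 37 and GABAergic genes one of 0.03 over 32, neither with a call. At a mean score of 0.02 or more the medians were 0.09 for sodium and calcium channels (9 genes), 0.13 for axon guidance (6), 0.04 for vesicle genes (7), 0.03 for glutamatergic (11) and 0.05 for GABAergic genes (5), against 0.08 over all such genes. These 5 medians lay on either side of that of all such genes. The median total intron length was 59871 bases for the potassium channels, 181478 for axon guidance and 98051 for sodium and calcium channels, against 20963 over all genes. For neuronal splicing regulators it was 126935 bases (median change 0.09) and for glutamatergic genes 105838 (0.11). For vesicle genes it was 59690 bases (0.09) and for GABAergic genes 50945 (0.03). How much of the difference of any list goes with intron length was not tested.

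Ribosomal, respiratory-chain and several non-neuronal marker lists had medians near 0. The medians were −0.0011 for 52 cytosolic ribosomal protein genes, whose median total intron length is 1360 bases, and 0.00 for 42 genes of the mitochondrial respiratory chain (6116 bases). They were 0.00 for 16 microglia and 21 astrocyte markers, −0.0015 for 11 endothelial and pericyte markers and 0.08 for 10 oligodendrocyte markers, against 0.15 for 13 neuron markers, none of these lists with a call. The neuron markers' median deviation was 0.42, 0.00 and 0.12 in N40K replicates 1, 2 and 3, with replicate 2 at the WT level. At a mean score of 0.02 or more the medians were −0.0019 (39 ribosomal genes), −0.0021 (8 respiratory-chain genes), −0.02 (7 microglia), −0.01 (7 astrocyte), −0.06 (3 endothelial and pericyte), 0.08 (5 oligodendrocyte) and 0.15 (3 neuron markers). After centring, which lowers N40K relative to WT by 0.16 in every gene, all N40K libraries lay below all WT libraries in 37 of the 52 ribosomal genes, against 20.8% of all genes, and before centring in none. The vessel gene Tek, the receptor of angiopoietins, had 0.011, 0.011 and 0.009 in N40K, against 0.013, 0.014 and 0.014 in WT (−0.35, limma adjusted p = 0.0898). The microglial receptor P2ry12 had 0.016, 0.011 and 0.014 in N40K, against 0.010, 0.010 and 0.011 in WT (0.33, limma adjusted p = 0.188). Its groups met at 0.011. A change above 0 was seen in 9 of 16 microglia markers and 4 of 11 endothelial and pericyte markers, against 70.9% of all genes. In bulk cortex a score pools all cells that express a gene, so the cells behind a difference cannot be told. A score is a ratio and not a level, and the marker scores were not read as numbers of cells.

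None of 15 activity-regulated genes passed. All N40K libraries lay above all WT libraries in 1 of them (6.67%) and below in 2 (13.3%), against 16.8% and 2.64% of all genes. The list's median change was 0.07, or 0.06 for the 12 with a mean score of 0.02 or more. Bdnf, a neurotrophin, had 0.011, 0.004 and 0.006 in N40K and 0.003 in all WT libraries (0.77, limma adjusted p = 0.136), whereas Npas4, a transcription factor induced by firing, had 0.103, 0.093 and 0.127 in N40K, against 0.151, 0.206 and 0.167 in WT (−0.69, limma adjusted p = 0.248). The list's median deviation was 0.41, −0.15 and 0.24 in N40K replicates 1, 2 and 3, the widest spread between the N40K libraries of any list. Of 18 imprinted genes Peg3 alone fell and none rose; Ube3a stood at 0.066, 0.058 and 0.054 in N40K, against 0.046, 0.050 and 0.051 in WT (0.26, limma adjusted p = 0.139), and Meg3, a maternally expressed non-coding RNA, at 0.065, 0.062 and 0.065 in N40K, against 0.074, 0.067 and 0.070 in WT (−0.13, limma adjusted p = 0.167). The imprinted list's median was 0.07, or 0.04 for 12 genes with a mean score of 0.02 or more. Of 29 Alzheimer disease genes none passed, and the median was 0.04, or 0.06 for 10 genes with a mean score of 0.02 or more.

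**Figure D5:**
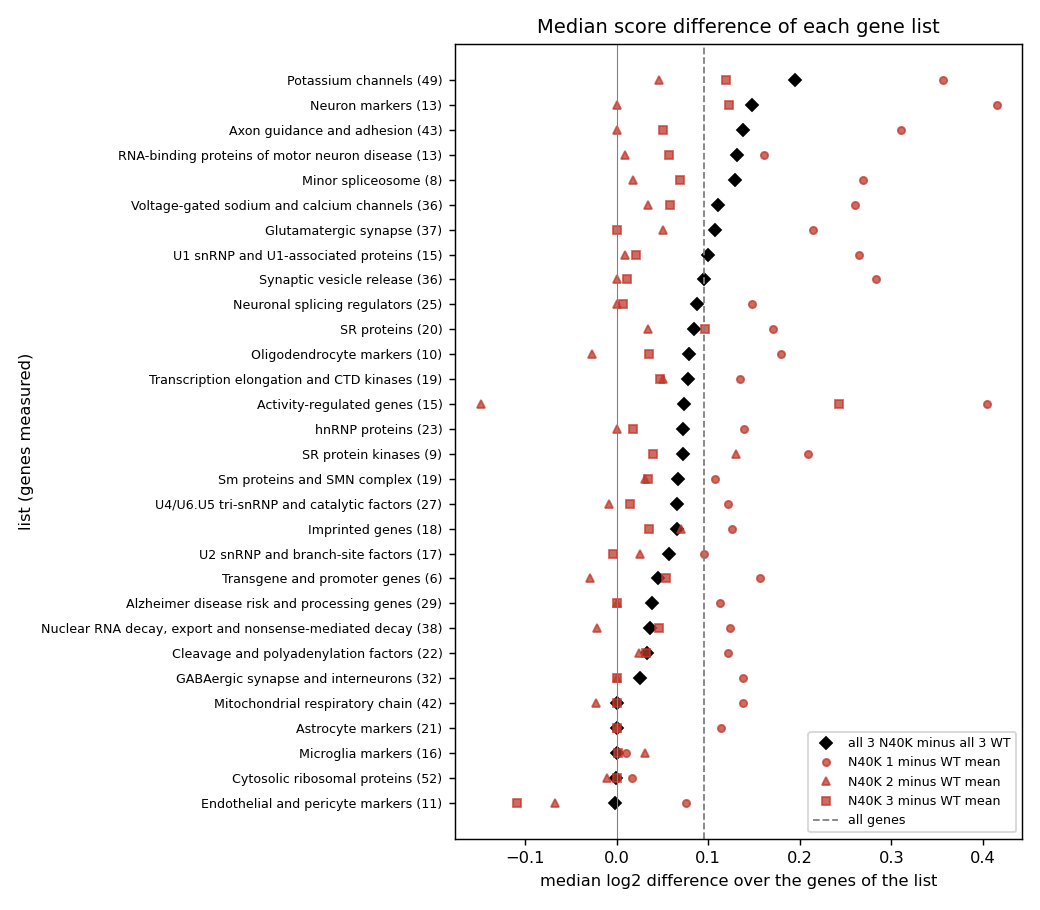
Median log2 difference over the genes of each list for the group comparison (black) and for each N40K library against the WT mean (red symbols), ordered by the group value, with the median of all genes dashed at 0.10. Potassium channels (0.19) and neuron markers (0.15) stand at the top, endothelial markers and ribosomal proteins (−0.0015 and −0.0011) at the bottom, and N40K replicate 1 gives the highest value in every list but the microglial one.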

How the data were processed

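Cortex RNA of 6-month mice was extracted with a DNase digestion, selected for poly(A) and sequenced as stranded paired-end libraries, per the labels' protocols. The authors deposited a ratio per gene and library, the Sd score, with 3 decimals. The submitters' processing notes name the mm9 build and the tools bedtools 2.16.1, BWA, STAR and CASAVA. The formula, counter, annotation and depth are not given in the sources used here, and no interval that needs depth was made. The 12-month table was not used.

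Scores plus 0.002 were log2-transformed and fitted with limma 3.58.1 in R 4.3.3, with 1 term for each of the 4 groups of 6 months (12 libraries, 8 residual degrees of freedom), so N40K and WT share the spread of all groups. P-values are two-sided and Benjamini-Hochberg adjusted over all genes fitted, with a threshold of 0.05. The fit was also run on simulated scores with known changes. These had independent noise in each gene and no shift of whole libraries, so that run does not cover such a shift. Single values per library were compared by exact permutation. Intron length came from GENCODE M21 (GRCm38) by gene identifier, and no gene position of the mm9 files was converted.

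Named were up to 10 rises and 10 falls past the threshold without overlap, up to 12 each way of the largest changes that held before and after centring, members of 30 gene lists past the threshold or with up to 4 of the smallest p-values, and 10 genes fixed by name. A gene that this rule names is not reported here. The members and lists were chosen with earlier results of these data known. Alternatives were other centrings, filters, pseudocounts, eBayes options, sets of libraries, a replicate block and leaving out each library.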

Additional observations from a re-analysis of the deposited data

Results flagged for a closer look

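The N40K effect differed between mice with and without the 5xFAD transgenes in 2 of the genes named above, by the interaction term of limma. Atp2b2 and Kcnab1 each had an interaction of −0.415 on the log2 scale (limma adjusted p = 0.0119). Both stood at 0.002 in every N40K library and 0.001 in every WT library, whereas every dTg and 5xFAD library had 0.002. The difference is 1 step of the last decimal in 1 group of 3, with no spread in any group. Synpr, the other gene past the threshold, was of the same kind and is not among the named genes, and 450 of 15705 genes had an interaction p under 0.05 unadjusted.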

How the results depend on the processing

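The main fit gave 28 genes, and 13 at a mean score of 0.02 or more. The numbers below are all genes that passed under other settings, which need not be among the 28. Centring each library on its median left 0 and 0, and the refit at 0.02 or more 2 and 2. That refit with centring gave 31 and 31, with 9 of the 28 among them. Centring on the median deviation of genes, chosen after seeing the data, gave 35 and 25, with 12 of the 28 among them. A pseudocount of 0.01 left 3 and 3, linear scores 5 and 5, and leaving out genes within 1 rounding step 10 and 9. With only the 6 libraries of N40K and WT, 105 and 26 passed, with 17 of the 28 among the 105. Without single replicates, centred fits included, 0 to 36 and 0 to 9 passed; the lowest uncentred counts were 18 and 3, without N40K replicate 1 and also without WT replicate 1. No called gene changed sign under any setting.

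Correlations of deviations from the group means were 0.0608, 0.0708 and 0.0147 for N40K and WT libraries of the same replicate number. For differently numbered libraries they ran from −0.0655 to 0.00802. The same-numbered values were thus small but the highest, and whether replicate numbers pair the samples cannot be told from them. With the replicate block 17 and 4 passed over 12 libraries and 0 and 0 over the 6.

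The longest-minus-shortest intron difference of 0.139 was 0.105 over all genes and 0.114 at a pseudocount of 0.01, and 0.132 to 0.151 without single replicates, with every N40K library above every WT library in each case. These settings were chosen after seeing the data. Quantile differences kept their direction, except that the 10th percentile was 0 without N40K replicate 1.

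Depth behind a score is unknown, and 3 decimals limit scores under 0.02.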
